A study of Mus musculus with 5 samples.

Results

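Teneurins and latrophilins are cell-surface proteins that bind each other across the gap between neighbouring cells. The teneurins (Tenm1 to Tenm4) are large transmembrane proteins with a very long extracellular part, and the latrophilins (Adgrl1 to Adgrl3) are adhesion G-protein-coupled receptors that also bind FLRT proteins. In the nervous system the pair is known for its part in axon guidance, in the matching of connecting neurons and in synapse formation. Most of the genes are very long, and open chromatin inside such genes can mark promoters and candidate regulatory elements.

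The 7 genes were taken by name, out of 21887 protein-coding genes on the autosomes and the sex chromosomes. Peaks were given to a gene when the summit lay in the gene body, or within 100 kb of it with no other protein-coding gene nearer. The genes were chosen by their peak counts in these same libraries, with the forebrain counts in view, so the forebrain and ectoderm counts below are a description with no test.

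Open chromatin was mapped by ATAC-seq, in which a transposase cuts accessible DNA and leaves sequencing adapters behind, in CD1 mouse embryos. Distal limb ectoderm was taken at E14.5 (E for embryonic day), with 2 libraries from forelimb and 2 from hindlimb, and forebrain at E13.5 gave 1 library. No genotype or treatment is given for any group. Trypsin was used to lift ectoderm off the mesoderm below it, whereas collagenase was used on forebrain, and tissue, stage and enzyme cannot be told apart when the groups are compared. It is not stated whether the 2 libraries of a limb are from different embryos, and their spread may thus be technical.

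The ectoderm lists held between 55391 and 86219 summits and the forebrain list held 151077, and hindlimb replicate 1 had the shortest list. Read totals were not used here, so the list length stands in for depth. As a check of the labels, peaks were looked for within 1 kb of the ends of marker genes. Of 8 surface ectoderm genes, the ectoderm libraries had a peak at 4 to 7 and forebrain at 3, and Krt5, Krt14, Trp63, Tfap2a and Krt8 had none in forebrain. Of these, Tfap2a had a peak in 4 ectoderm libraries, Krt5 and Krt14 in 3, Trp63 in 1 (forelimb replicate 2) and Krt8 in 0. Of 8 forebrain genes, forebrain had a peak at all 8 and the ectoderm libraries at 3 to 5, with Pax6, Neurod2 and Dcx at none of the 4. Ectoderm libraries also had peaks at 2 to 3 of 4 limb mesenchyme genes, 2 of 4 endothelial genes and 2 to 3 of 4 melanocyte and Schwann lineage genes, although Sox10 had none anywhere. Forebrain had peaks at 4, 3 and 3 of these same lists. A peak at a gene does not count cells, and the part of such cells in the results below was not tested.

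The sequences of the gene starts that the results turn on are shown first, from RefSeq (GRCm38.p6, the release of the mm10 build). Each is the 250 bases before a start, on the strand of the gene. In the first, before the outer start of Tenm4 (chr7:96170994-96171243, plus strand), capitals mark the 95 bases that lie under a region with a peak in each of the 4 ectoderm libraries but none in forebrain. The second lies before another Tenm4 start, 40.4 kb further into the gene (chr7:96211421-96211670, plus strand), and holds no peak. The third lies before the start of Adgrl1 (chr8:83899848-83900097, plus strand) and is covered entirely by a region with peaks in all 5 libraries. There, capitals mark both GC boxes (GGGCGG, here on the minus strand and so written CCGCCC). The fourth, before a start 292.8 kb inside Tenm2 (chr11:36944242-36944491, minus strand), held no peak in any library and stands as a contrast. A peak of hindlimb replicate 1 alone (chr11:36943773-36944118) lay 123 bp from this window.

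Tenm4 outer start: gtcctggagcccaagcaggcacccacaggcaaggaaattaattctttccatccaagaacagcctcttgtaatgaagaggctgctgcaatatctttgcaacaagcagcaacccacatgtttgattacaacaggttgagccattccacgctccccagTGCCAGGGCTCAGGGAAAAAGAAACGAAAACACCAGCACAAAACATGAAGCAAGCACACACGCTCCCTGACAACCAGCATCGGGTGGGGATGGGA
Tenm4 inner start: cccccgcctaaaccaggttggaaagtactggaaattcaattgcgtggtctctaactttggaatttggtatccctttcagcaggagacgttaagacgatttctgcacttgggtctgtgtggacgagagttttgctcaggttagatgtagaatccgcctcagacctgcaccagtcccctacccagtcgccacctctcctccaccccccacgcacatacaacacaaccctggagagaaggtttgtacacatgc
Adgrl1 start: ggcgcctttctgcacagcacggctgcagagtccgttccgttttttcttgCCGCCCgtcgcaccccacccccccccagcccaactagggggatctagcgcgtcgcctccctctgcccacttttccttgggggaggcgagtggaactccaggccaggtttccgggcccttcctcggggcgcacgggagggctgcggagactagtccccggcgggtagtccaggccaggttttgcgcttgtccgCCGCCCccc
Tenm2 inner start: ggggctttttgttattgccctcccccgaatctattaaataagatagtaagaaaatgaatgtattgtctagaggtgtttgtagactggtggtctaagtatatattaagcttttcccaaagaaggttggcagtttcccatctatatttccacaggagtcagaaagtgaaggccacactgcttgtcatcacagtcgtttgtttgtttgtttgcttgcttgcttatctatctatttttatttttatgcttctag

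The Adgrl1 window was 68.8% G and C and held 21 CpG dinucleotides, while the Tenm4 windows were 50.8% and 51.6% with 4 and 8 CpGs, and the Tenm2 window was 37.2% with 2. The median over 21263 promoters of protein-coding genes was 55.6% with 10 CpGs. Searched on both strands, the letters TAATTA (the core of many homeodomain sites), CAGATG (an E-box of neural bHLH factors), TGANTCA (AP-1) and CCAAT (NF-Y) were in none of these 4 windows, and GGGCGG was in the Adgrl1 window only. Over all 32851 promoters in the table, windows of this length held them at 4.84%, 14.4%, 6.75%, 33.8% and 32.7%, in that order. None of the 5 motifs contains another, and a match or its absence says only which letters are present.

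Counts were scaled to list length, as summits per 10000 summits given to any protein-coding gene in the same library. Over the 7 genes together the forelimb libraries held 160 and 211 summits, the hindlimb libraries 113 and 224, and forebrain 517. Scaled, these were 22.7, 31.0, 24.1 and 30.2 per 10000 in ectoderm and 41.5 per 10000 in forebrain. The forebrain value lay above all 4 ectoderm libraries, and was 1.54 times the ectoderm mean of 27.0 ± 4.23 (SD, n = 4). Without scaling the ratio was 2.92, where the summits given to any gene were 1.92 times as many in forebrain as in the ectoderm mean.

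The median of the 7 single-gene ratios was 1.52, against 0.875 over 11821 genes with at least 10 summits and 1.44 over the 225 genes of 500 kb or more. Of the 7 genes, 0 had a forebrain value at least 2 times that of the highest ectoderm library, where 1.63% of all genes tested and 3.11% of the genes of 500 kb or more did. None had a forebrain value at or under 0.5 times the lowest ectoderm library, where 5.68% of all genes tested and 0.444% of the genes of 500 kb or more did. Forebrain was the highest of the 5 libraries at 6 of the 7 genes, all but Adgrl1, compared with 20.9% of all genes tested and 72% of the genes of 500 kb or more. The forebrain excess at these genes was therefore close to that of long genes in general. No test was made, since the genes were chosen by these counts and forebrain has 1 library. An exact permutation test of 4 libraries against 1 could not give a p below 0.2.

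**Figure D1:**
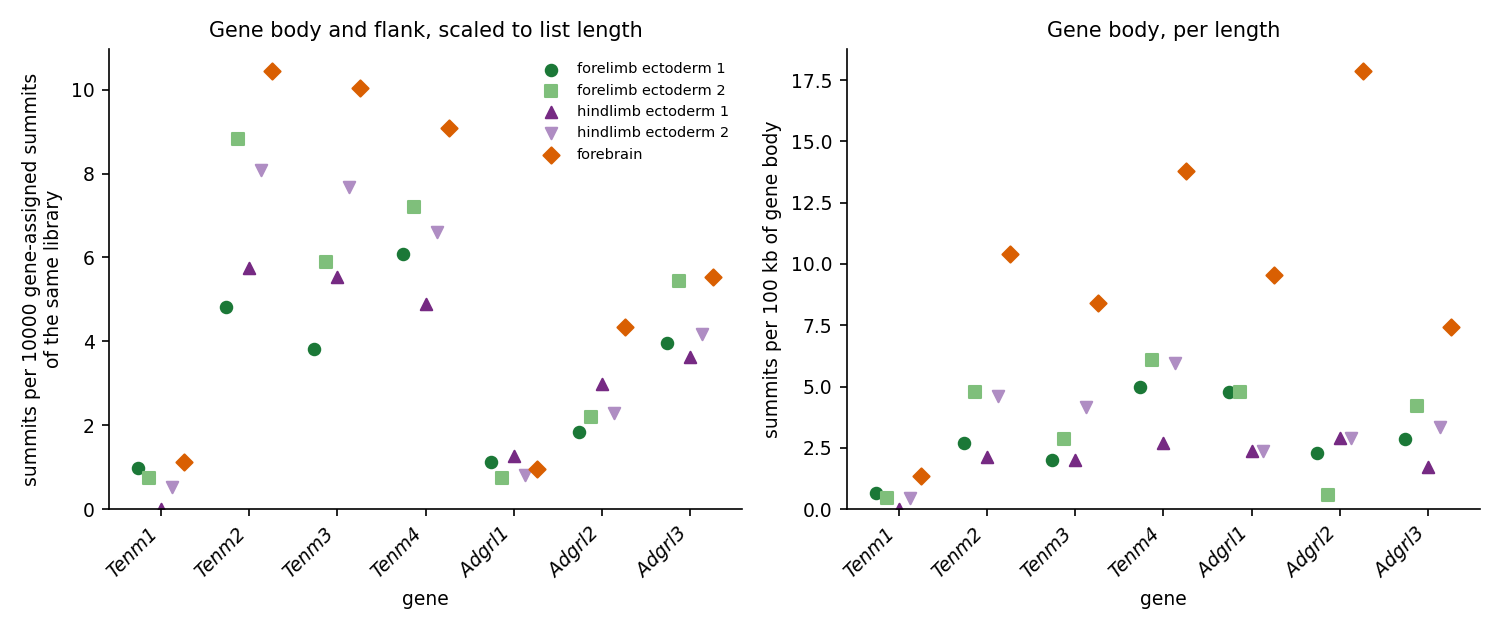
Left, summits per 10000 gene-assigned summits of the same library at each gene (body and flank). Right, summits per 100 kb of gene body. Each point is 1 library. Forebrain is the highest point at every gene but Adgrl1 on the left and at every gene on the right, where lists are not scaled to length and Adgrl2 reaches 17.9.

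Tenm1 (X, 42527866 to 43429168, minus strand, 901.3 kb, gene ID 23963) had the fewest peaks for its length. It had 7 and 5 summits (forelimb), 0 and 4 (hindlimb) and 14 (forebrain), or 0.666, 0.444, 0, 0.444 and 1.33 summits per 100 kb of gene body. Its forebrain density ranked 2320 among 2372 genes of 100 kb or more. Scaled to the lists, forebrain (1.12 per 10000) was barely above forelimb replicate 1 (0.991). The hindlimb replicate without a summit also had the shortest list, where 3 counts, the limit that a count of 0 allows, would still be within the range of the other libraries.

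Tenm2 (chromosome 11, 36006656 to 37237053, minus strand, 1230.4 kb, gene ID 23964) had 34 and 60 summits (forelimb), 27 and 60 (hindlimb) and 130 (forebrain). Its body held 2.68, 4.80, 2.11 and 4.63 summits per 100 kb in ectoderm and 10.4 in forebrain. Replicates of a limb differed from each other by more than the limbs did. Scaled to the lists, forelimb replicate 2 (8.82 per 10000) came closer to forebrain (10.4) than to its own replicate (4.81).

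Tenm3 (chromosome 8, 48225665 to 49522824, minus strand, 1297.2 kb, gene ID 23965), the longest of the 7, had 27 and 40 summits (forelimb), 26 and 57 (hindlimb) and 125 (forebrain). The densities were 2.004, 2.85, 2.004 and 4.16 per 100 kb of body in ectoderm and 8.40 in forebrain. Scaled, Tenm3 had 3.82, 5.88, 5.54 and 7.68 summits per 10000 in ectoderm and 10.04 in forebrain, a ratio of 1.31 to the highest ectoderm library.

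Tenm4 (chromosome 7, 96171244 to 96911093, plus strand, 739.9 kb, gene ID 23966) was the densest teneurin in every library. It had 43 and 49 summits (forelimb), 23 and 49 (hindlimb) and 113 (forebrain), or 5.001, 6.08, 2.70, 5.95 and 13.8 per 100 kb of body. In forebrain this ranked 209 among the 2372 genes of 100 kb or more, and in ectoderm between 254 and 775. High density at Tenm4 was therefore shared by both tissues.

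Among the latrophilins, Adgrl1 (chromosome 8, 83900098 to 83941954, plus strand, 41.9 kb, gene ID 330814) is the shortest of the 7 genes and the only one at which forebrain did not lead. Its scaled values were 1.13 and 0.735 per 10000 (forelimb), 1.28 and 0.808 (hindlimb) and 0.964 (forebrain), from 8, 5, 6, 6 and 12 summits. Forebrain lay inside the ectoderm range. Adgrl3 (chromosome 5, 81019085 to 81827825, plus strand, 808.7 kb, gene ID 319387) had 28 and 37 summits (forelimb), 17 and 31 (hindlimb) and 69 (forebrain). Scaled, its forebrain value of 5.54 per 10000 was 1.02 times that of forelimb replicate 2 (5.44). The densities of Adgrl3 were 2.84, 4.204, 1.73 and 3.34 per 100 kb of body in ectoderm and 7.42 in forebrain.

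Adgrl2 (chromosome 3, 148815586 to 148989096, minus strand, 173.5 kb, gene ID 99633) had the highest ratio of forebrain to ectoderm of the 7 genes when the body alone was counted. Of its summits, 13 and 15 (forelimb), 14 and 17 (hindlimb) and 54 (forebrain), the body held 4, 1, 5, 5 and 31. The flanks held 9, 14, 9, 12 and 23. Per 100 kb of body that gives 2.31, 0.576, 2.88 and 2.88 in ectoderm, a mean of 2.16 ± 1.09 (SD, n = 4), and 17.9 in forebrain. The forebrain density ranked 52 among 2372 genes of 100 kb or more, while forelimb replicate 2 ranked it 2334. Scaled to list length, the body ratio of forebrain to the ectoderm mean was 4.06, against 1.30 to 1.95 for the other 6 genes. Counted over the body alone, Adgrl2 passed 2 times the highest ectoderm library, as did 1.91% of all genes tested in that way. With its flanks counted it did not (1.45 times), nor did it with a flank of 20 kb, where 0 of the 7 genes passed. The region at its start, shared by all 5 libraries, had its strongest summit at -0.444 kb, so that summit counted as flank. The body ratio thus depends on where the gene end is drawn and on body counts of 1 to 5 in ectoderm.

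**Figure D2:**
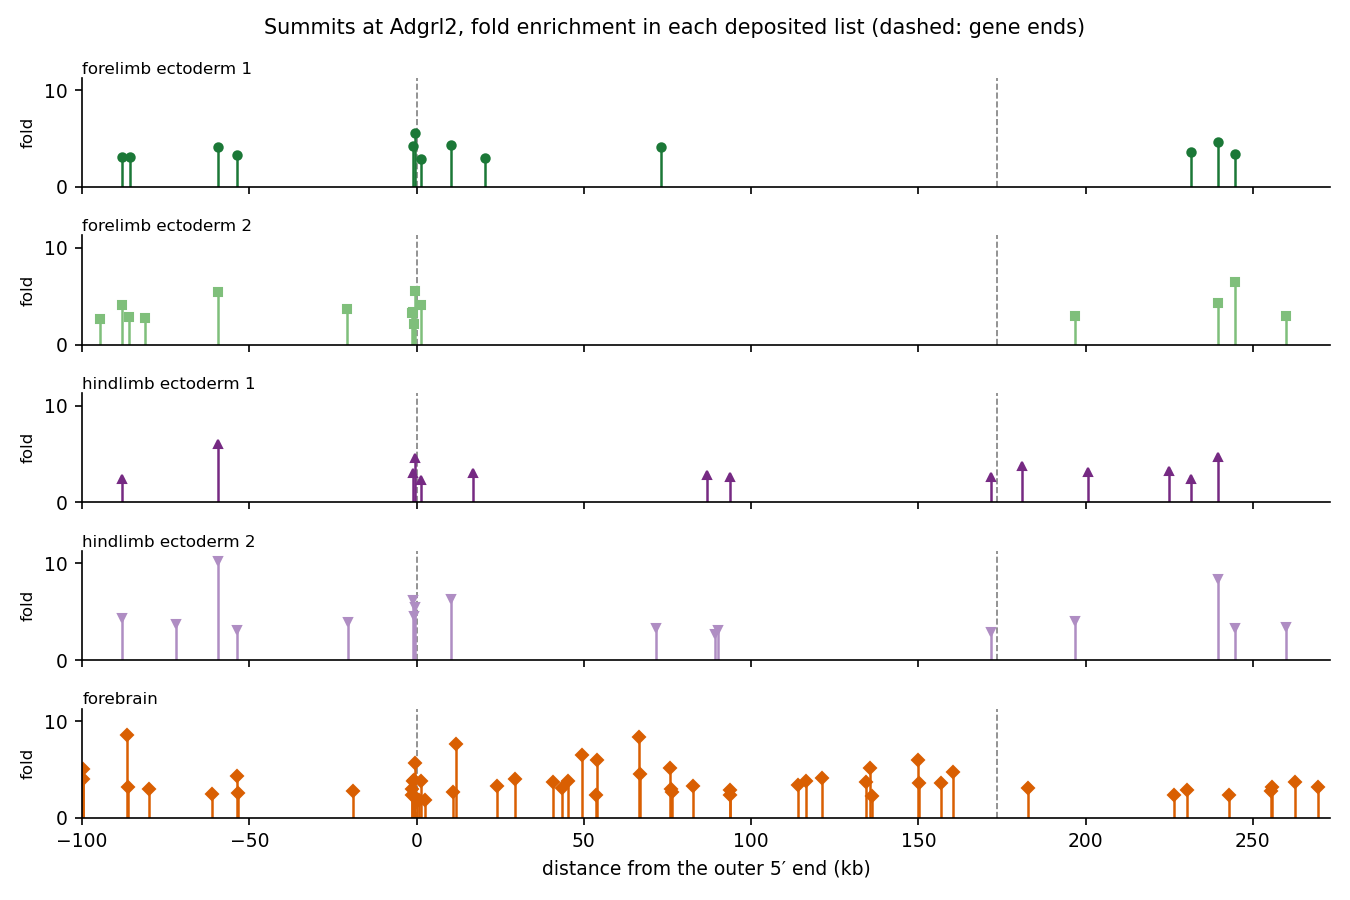
Summits at Adgrl2 in each library, by distance from the outer 5′ end in kb (horizontal) and by the authors' fold enrichment (vertical, each list on its own scale of significance). Dashed lines mark the ends of the gene; the body holds 31 forebrain summits and 1 to 5 ectoderm summits, and every library has summits at the start.

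The densest stretch of forebrain peaks in Adgrl2 was the 50 kb between 29.6 and 79.6 kb from its 5′ end (chr3:148909540-148959540). It held 12 forebrain summits, with 1 and 0 in forelimb and 0 and 1 in hindlimb. The strongest forebrain region there, chr3:148922228-148923130, had a fold enrichment of 8.4 and stood at percentile 84.8 of the forebrain list by −log10 p. Similar stretches lay far inside Tenm4 (614.7 to 664.7 kb, 14 forebrain summits against 3, 2, 1 and 4), Tenm2 (1115.5 to 1165.5 kb, 12 against 1, 3, 0 and 1) and Tenm3 (1164.7 to 1214.7 kb, 11 against 1, 1, 1 and 3). In Adgrl3 the 50 kb from about 500 kb onward held 10 against 4, 3, 1 and 4. These windows were picked for their forebrain counts, so they describe where forebrain peaks cluster and nothing more.

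**Figure D3:**
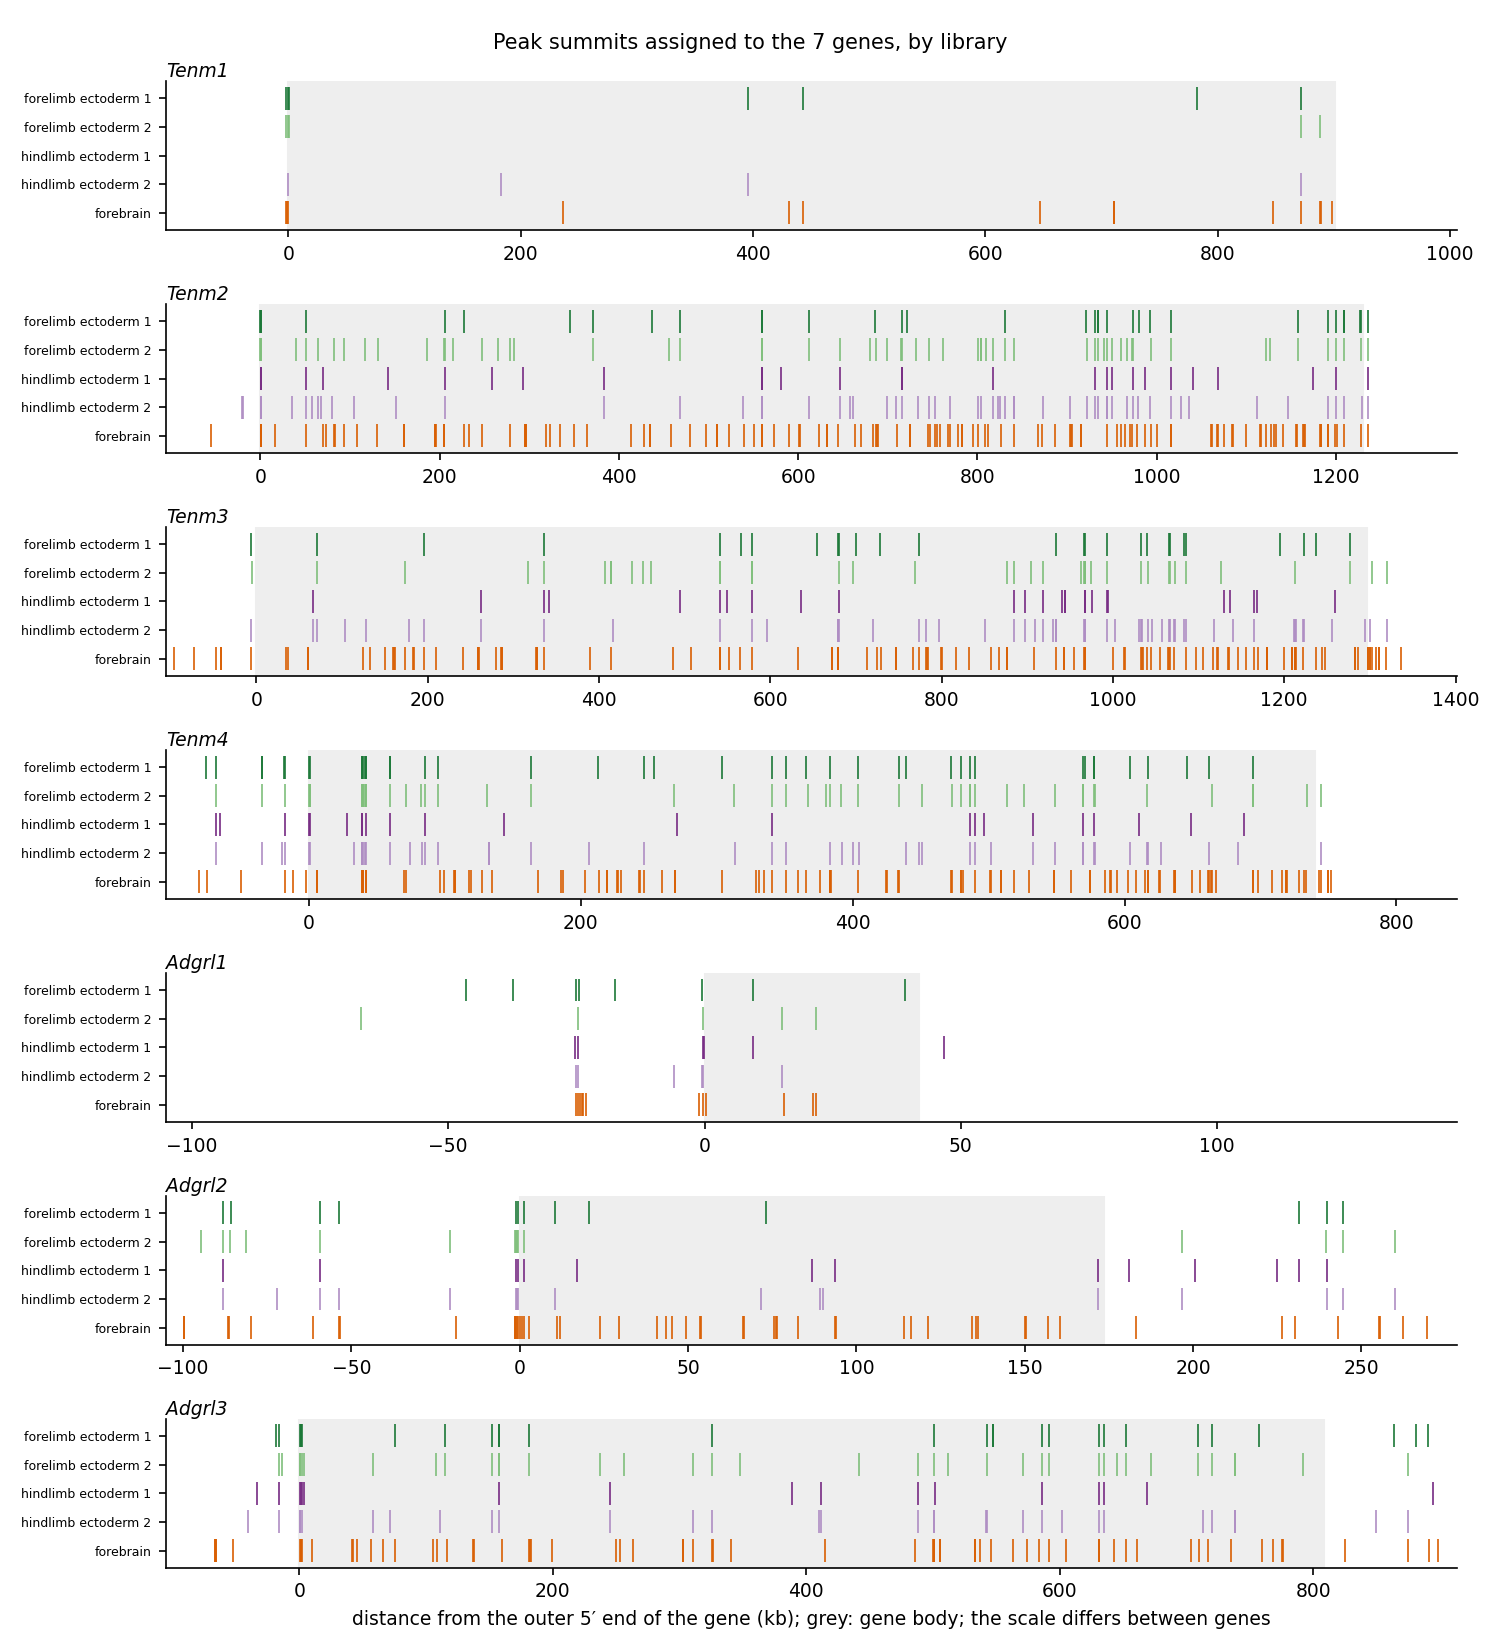
Summits given to each gene in each library, by distance from the outer 5′ end in kb, with the gene body in grey. Each vertical mark is 1 summit; the horizontal scale differs between genes, and Tenm1 is nearly empty while forebrain marks run along the whole of Tenm2, Tenm3 and Tenm4.

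Peaks of the 5 libraries that overlapped by at least 1 bp were merged into regions, of which 678 fell to the 7 genes. Forebrain alone had a peak in 318 of them, or 46.9% (exact Clopper-Pearson 95% interval 43.1% to 50.7%), against 32.1% of all 182773 regions given to genes and 41.7% in genes of 500 kb or more. All 4 ectoderm libraries and not forebrain had a peak in 18, or 2.65% (1.58% to 4.16%), against backgrounds of 2.35% and 2.16%. Forebrain shared 69 (10.2%) with 1 to 3 ectoderm libraries, against 12.9% and 9.85%. A further 62 (9.14%) had peaks in 2 or 3 ectoderm libraries alone, against 7.94% and 7.28%, and 187 (27.6%) in 1 ectoderm library alone, against 36.6% and 36.4%. All 5 libraries shared 24, or 3.54% (2.28% to 5.22%), against 8.15% and 2.65%. These intervals cover counting error only and treat each region as independent. They test nothing, since the genes were chosen with forebrain counts in view and forebrain has 1 library. With all lists shortened to the length of the shortest by −log10 p, the forebrain-only regions at the 7 genes numbered 99. No background share was worked out for the shortened lists, so the shares above hold for lists of unequal length only. Without hindlimb replicate 1 the regions in every remaining ectoderm library and not in forebrain numbered 30 in place of 18.

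Teneurins and latrophilins had nearly the same share of forebrain-only regions, 232 of 496 (46.8%) and 86 of 182 (47.3%). By gene the share ran from 4 of 16 at Adgrl1 and 6 of 15 at Tenm1 to 36 of 64 (56.2%) at Adgrl2. Tenm2 (85 of 184), Tenm3 (77 of 163), Tenm4 (64 of 134) and Adgrl3 (46 of 102) lay between 45.1% and 47.8%, and their intervals overlapped. Of the regions with a forebrain peak, 77.4% had no ectoderm peak, close to the 76.9% in genes of 500 kb or more and above the 60.4% over all regions. At Adgrl2 this was 36 of 40.

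**Figure D4:**
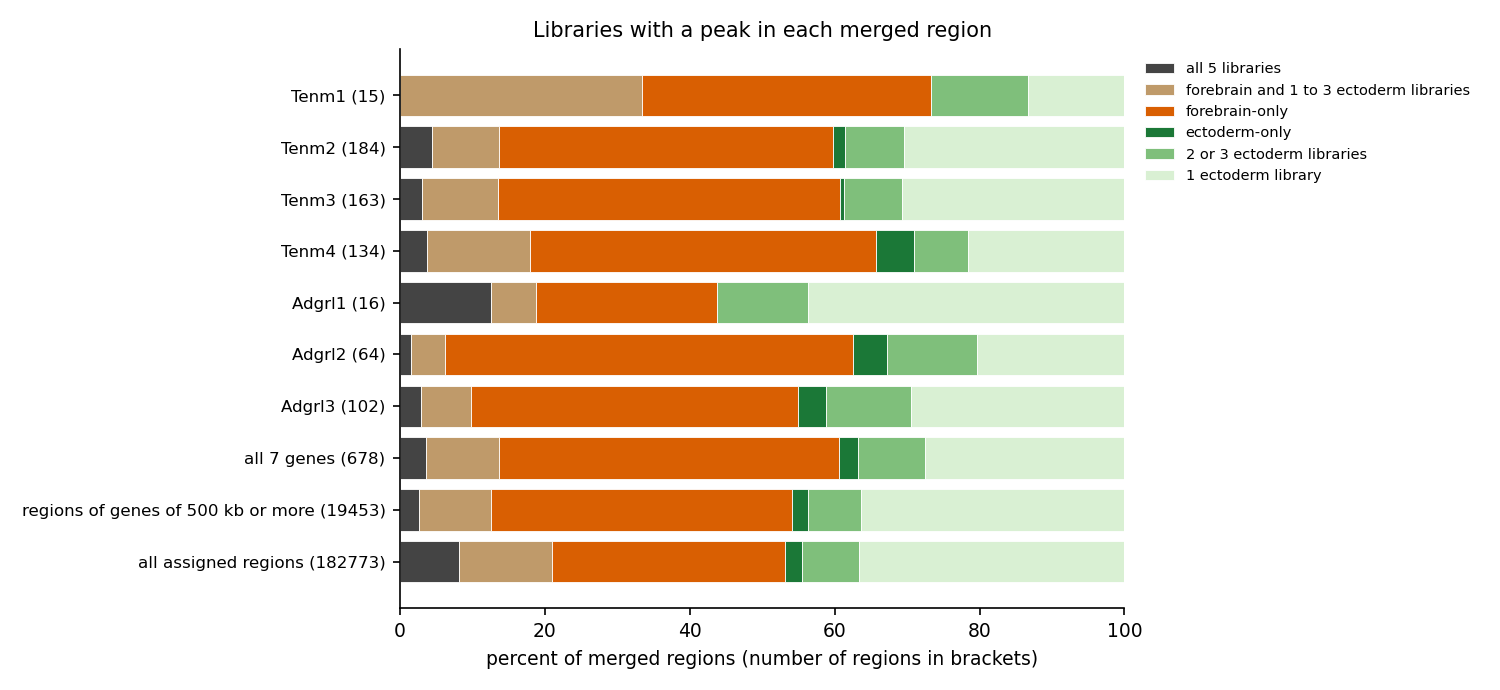
Share of merged regions by the libraries that have a peak in them, for each gene, the 7 together, genes of 500 kb or more and all regions, with the number of regions in brackets. Forebrain-only regions make up 46.9% at the 7 genes, 41.7% in long genes and 32.1% of all regions, in lists of unequal length. With equal lists the 7 genes have 99 such regions in place of 318, and no background share was worked out.

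The starts of the genes were looked at separately. A peak lay within 1 kb of the outer 5′ end in all 5 libraries at Tenm2, Adgrl1, Adgrl2 and Adgrl3, as at 46.4% of 17492 genes with a known strand. At Adgrl3 the region (chr5:81019427-81021119) had folds of 5.6, 6.4, 7.0 and 8.6 in ectoderm and 9.0 in forebrain, and stood between percentiles 88.2 and 96.0 of the lists. The Tenm2 start (chr11:37235860-37237283) stood at percentile 95.1 of the forebrain list and between percentiles 45.9 and 78.0 of the ectoderm lists. Tenm1 had a peak there in all libraries but hindlimb replicate 1. Tenm3 had none within 1 kb in any library. No member had a start with a peak in forebrain and in 0 ectoderm libraries, a pattern seen at 4.09% of genes.

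Tenm4 alone had a start with a peak in all 4 ectoderm libraries and none in forebrain, a pattern found at 0.526% of the 17492 genes (92). The region, chr7:96171149-96172156, had folds of 5.6 and 5.9 in forelimb and 3.7 and 6.0 in hindlimb, at percentiles 77.9, 84.4, 73.2 and 80.6 of their lists. The forebrain peak with the highest −log10 p of the whole gene lay 1766 bp away, upstream, at chr7:96168635-96169383, with a fold of 15.4 at percentile 94.8. No ectoderm library had a peak in that upstream region. Ectoderm and forebrain therefore had their peaks at different places around the outer start shown above. The inner start, 40.4 kb further in, had no peak on it, but a region shared by all 5 libraries (chr7:96209723-96211197) ended 474 bp before it.

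The promoter table, with 21263 starts of protein-coding genes, lists no start at the outer 5′ end of 5 members: its starts lie 154.4 kb into Tenm1, 292.8 kb into Tenm2, 848.1 kb into Tenm3, 34.5 kb into Adgrl2 and at 1.49, 1.67 and 2.51 kb in Adgrl3. The windows in Tenm1, Tenm2, Tenm3 and Adgrl2, from 250 bases before to 50 after the start, held no peak in any library, as did 34.7% of all. Peaks of all 5 libraries overlapped the Adgrl1 window, as at 41.9% of all. The outer Tenm4 window was overlapped by peaks of both forelimb libraries and hindlimb replicate 2. The hindlimb replicate 1 peak began further inside the gene, so Tenm4 is not among the 0.433% of windows with all 4 ectoderm libraries and no forebrain peak.

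**Figure D5:**
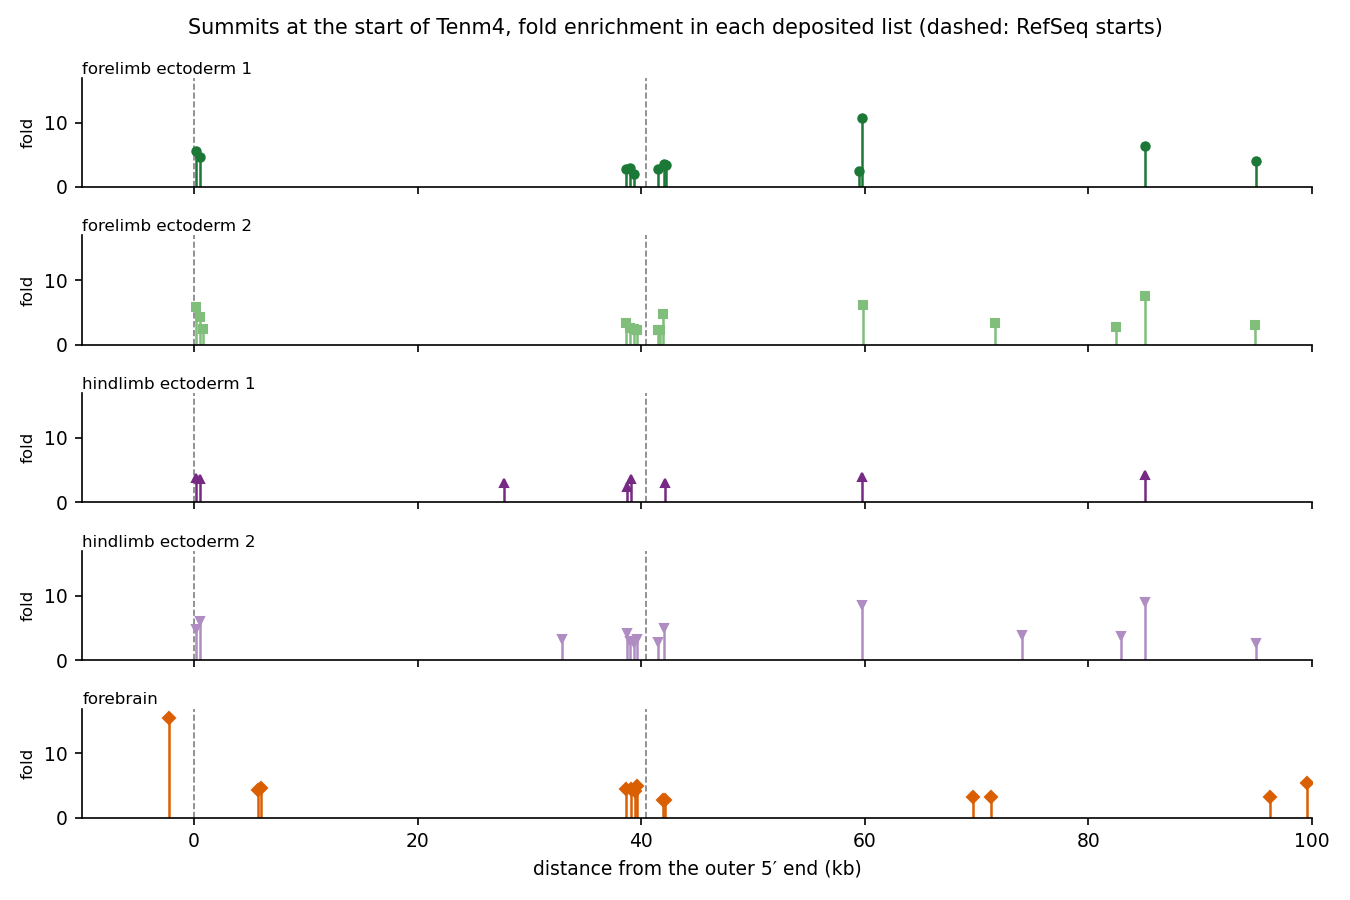
Summits from 10 kb before to 100 kb after the outer 5′ end of Tenm4, by distance in kb (horizontal) and the authors' fold enrichment (vertical) in each library. Dashed lines mark the RefSeq starts at 0 and 40.4 kb; the 4 ectoderm libraries have summits just after 0, and forebrain has its highest summit, at a fold of 15.4, before it.

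Ectoderm-only regions numbered 7 at Tenm4, 4 at Adgrl3, 3 at Tenm2, 3 at Adgrl2, 1 at Tenm3 and 0 at Tenm1 and Adgrl1. At Tenm4 they included 3 in the first 100 kb of the gene: the start itself, chr7:96230624-96231203 at 59.8 kb (folds 10.7, 6.1, 3.9 and 8.5) and chr7:96256015-96256546 at 85.1 kb (folds 6.4, 7.5, 4.2 and 9.0). A further pair lay at 569.6 kb and 577.5 kb, another at 486.1 kb, and the last in the upstream flank, at -68.3 kb. Of all Tenm4 body summits, ectoderm-only or not, the 20% of the body nearest the 5′ end held 32.4% and 35.6% in forelimb. That stretch held 9 of 20 summits and 36.4% in hindlimb, and 18.6% in forebrain (exact 95% interval 11.6% to 27.6%). All 4 ectoderm intervals, with lower bounds of 18.0% and 21.9% in forelimb and 23.1% and 22.4% in hindlimb, overlap that of forebrain. These intervals treat every summit as independent, although 1 peak can hold several summits.

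At Tenm3 the order was the other way, with 7.69%, 5.41%, 3.85% and 11.1% of body summits in that same stretch in ectoderm and 16.5% (10.1% to 24.8%) in forebrain. These intervals overlap as well. Over the 7 genes it held 26.0%, 24.7%, 25.0% and 22.9% in ectoderm and 18.8% in forebrain, much as in genes of 500 kb or more (23.0% to 24.2% in ectoderm and 20.2% in forebrain).

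At Adgrl3, Tenm2, Adgrl2, Tenm4 and Tenm1 the ectoderm summit with the highest −log10 p in any library lay in a region without a forebrain peak. All of these came from hindlimb replicate 2. At Tenm3 and Adgrl1 it lay in a region shared by all 5 libraries. The Tenm4 region was the one at 85.1 kb, which led in hindlimb replicate 2 only. In forelimb replicate 1 the ectoderm-only region at 59.8 kb stood higher. In forelimb replicate 2 and hindlimb replicate 1 a peak at 340.9 kb stood higher, and forebrain also had a summit at 340.8 kb. The Tenm1 region (chrX:43032914-43033186) had peaks only in forelimb replicate 1 (fold 3.9) and hindlimb replicate 2 (fold 6.8). The regions without a forebrain peak did not lead in every ectoderm library. In Adgrl3 the region chr5:81604639-81605365, 585.8 kb into the gene, had folds of 6.4 and 8.1 in forelimb and 10.2 and 14.48 in hindlimb, at percentiles 78.7, 89.8, 96.2 and 97.1. In Tenm2 the region chr11:36305406-36306096, 931.3 kb in, had folds of 8.3 and 8.6 in forelimb and 8.1 and 10.7 in hindlimb, all at or above percentile 92.2. The Adgrl3 region led in both hindlimb libraries, while in forelimb the start (replicate 1) and a peak at 151.7 kb (replicate 2) stood higher. The Tenm2 region led in all but forelimb replicate 1, where peaks shared by all 5 libraries at 559.5 kb and 1235.6 kb stood higher. At Adgrl2 the region lay outside the body, upstream at -59.4 kb (chr3:149048331-149048893), with folds of 4.1 and 5.4 in forelimb and 6.0 and 10.3 in hindlimb. In the other 3 ectoderm libraries the Adgrl2 start, which is shared with forebrain, had the highest −log10 p. The other ectoderm-only regions of Adgrl2 lay in its flanks too, at -88.1 kb and at 239.6 kb from the 5′ end.

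Some strong peaks were shared. The strongest peak of Tenm3 by −log10 p was the same region in all 5 libraries, chr8:48554840-48556226, 967.5 kb into the gene, with folds of 7.1, 7.8, 7.5 and 10.1 in ectoderm and 10.3 in forebrain. Forebrain-only regions reached similar heights: chr11:36696922-36697737 in Tenm2, overlapping the lncRNA gene Gm51889, had a fold of 11.9, and chr5:81359357-81360081 in Adgrl3 one of 12.3. By −log10 p, the median peak of the 7 genes stood at percentiles 49.2, 39.7, 47.5 and 49.2 of the ectoderm lists and at percentile 48.5 of the forebrain list. Peaks in genes of 500 kb or more stood at percentiles 41.1 to 44.2.

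Tenm4 also hosts 2 microRNA genes, whose mature products are short RNAs that repress targets matched by their seed, bases 2 to 8. They are shown with the seed in capitals because one lies under a peak and the other does not.

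mmu-miR-6394: uCCCUGAGuggggccaggucu
mmu-miR-708-5p: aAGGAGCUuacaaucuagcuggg
mmu-miR-708-3p: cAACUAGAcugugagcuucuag

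The mature miR-6394 (chr7:96305740-96305760, plus strand) lay under a forebrain-only region, chr7:96305553-96305795, of modest strength (fold 2.73, percentile 21.5). The nearest ectoderm peak was 1960 bp away, in hindlimb replicate 2. miR-708-5p (chr7:96249450-96249472, plus strand) had no peak within 3961 bp in any library. The 3 seeds differ from each other.

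Between the limbs, both forelimb libraries lay above both hindlimb libraries at Tenm1 (0.991 and 0.735 against 0 and 0.539 per 10000), and both hindlimb libraries above both forelimb libraries at Adgrl2 (2.98 and 2.29 against 1.84 and 2.20). The other 5 genes overlapped. Of all genes tested, 18.5% had forelimb above and 13.9% had hindlimb above in this way, so 2 of 7 was near the background, and 2 against 2 cannot give a two-sided p below 0.333. Regions with peaks in both forelimb libraries and no other library numbered 15 of 678 at the 7 genes, where 1.98% of all regions given to genes are of this kind. Those with peaks in both hindlimb libraries only numbered 9, against 0.672% of all.

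Known binding partners of both families, with the related receptor gene Adgrl4, made a list of 18 genes, of which 16 had enough summits to be counted. Their median forebrain to ectoderm ratio was 1.59. Forebrain was at least 2 times the highest ectoderm library at 4 of the 16 (1.63% of all genes tested) and at or under 0.5 times the lowest at 0. Unc5a, a netrin receptor that also binds FLRT proteins, had 0.708, 0.294, 0.426 and 0.404 summits per 10000 in ectoderm and 1.45 in forebrain. Cntn6, a contactin cell-adhesion gene, had 0.991, 1.03, 0.852 and 0.539 against 2.49. Shank1, a scaffold gene of the postsynaptic side, had 0.283, 0.294, 0 and 0.269 against 0.964, from only 18 summits over the 5 libraries. Adgrl4, an adhesion receptor known from endothelium, had 0.425, 0.735, 0.852 and 0.539 against 2.09. Of its 26 forebrain summits, 22 lay in the flanks. Among the endothelial markers, Kdr and Tek had a peak in all 5 libraries, Cdh5 in forebrain only and Pecam1 in none. The part of endothelial cells in the Adgrl4 counts was not tested.

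The genes with densities most like those of each member were found by the distance over the 5 libraries of log2(summits per 100 kb of body + 0.1), a descriptive measure. They were Glra2 for Tenm1, Samd5 for Tenm2, Mast4 for Tenm3, Asap1 for Tenm4, Thumpd2 for Adgrl1, Ctnnbl1 for Adgrl2 and Tmem266 for Adgrl3. Most distances were 0.08 to 0.44 log2 units, against medians over all genes of 3.09 to 7.81. The matches of Adgrl1 and Tenm1 rest on few summits. Body counts in forelimb, hindlimb and forebrain were 2, 2, 1, 1 and 4 at Adgrl1 and 6, 4, 0, 4 and 12 at Tenm1. Adgrl2 had the least close match, at 0.76, since Ctnnbl1 reached 11.003 summits per 100 kb in forebrain against 17.9 for Adgrl2.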

How the data were processed

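ATAC-seq peak lists of 5 libraries were used. The authors deposited 1 list for each, so peaks come from single libraries. The submitters' processing notes name MACS2 2.1.1.20160309, Bowtie2 2.3.5, cutadapt 1.16, bedtools and Picard, and the build mm10. A shift of reads to the transposase cut: not given in the sources used here. For each peak the deposited fold enrichment (a ratio), the −log10 p-value and the −log10 q-value are the authors' values and were used only within their own list. The deposited score column, also the authors', was left out. The smallest deposited −log10 q was 1.30 to 1.31 in each list.

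Summits on chromosomes 1 to 19, X and Y were given to RefSeq protein-coding genes (GRCm38.p6), and 82.4% to 86.1% found a gene. A summit inside overlapping genes counted for each. Every summit row was counted, also where an interval held several. Counts were divided by the assigned summits of the library and multiplied by 10000. Genes with under 10 summits over the 5 libraries were not counted. Percentiles rank a peak within its list by −log10 p. Strand came from the RefSeq promoter table, which had all 7 genes. Exons were not used here. No test was made, because forebrain has 1 library and the genes, lists and motifs were chosen with earlier results of these data known. Named were all 7 genes, the partners past the threshold, the nearest gene by density, and for each gene the forebrain and the ectoderm summit of highest −log10 p in any library, the start and the ectoderm-only regions; other regions and windows were chosen after their values were seen. The gene assignment was checked at random positions against a direct search. The calls were tried on simulated counts with a planted forebrain excess larger than that of any of the 7 genes, and smaller excesses were not tried. Python 3.11.15, pandas 2.3.3, numpy 2.4.6 and scipy 1.17.1 were used.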

Additional observations from a re-analysis of the deposited data

How the results depend on the processing

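The alternatives were a −log10 q of at least 5, lists shortened to the length of the shortest, a flank of 20 kb or none, ties left out, 1 summit per interval, no scaling, a fold of 3, joins of 100 bp, and each ectoderm library left out in turn. The forebrain to ectoderm ratio at the 7 genes lay between 1.37 and 1.62 except without scaling, where it was 2.92. The number of genes at least 2 times the highest ectoderm library stayed 0 except over the gene body alone, where it was 1 (Adgrl2), and without scaling, where it was 5 (Tenm1 to Tenm4 and Adgrl2) beside 20.2% of all genes tested. Forebrain-only regions numbered 230 to 334 except with lists of equal length, where 99 were left. Ectoderm-only regions numbered 18 to 30 with 1 library left out, the 30 being without hindlimb replicate 1, and 13 to 20 otherwise. Genes whose limbs did not overlap numbered 4 over the gene body alone (Tenm1, Tenm3, Adgrl1 and Adgrl2), where 32.5% of all genes tested do the same. Some of these body counts were very low, as at Adgrl1 (2 and 2 in forelimb, 1 and 1 in hindlimb). With 1 library left out such genes numbered 3 to 6, where 60.1% to 73.9% of all genes tested do the same. No paired analysis was possible because the results come from peak counts with no test, and the shared replicate numbers only name libraries. Forebrain had 1 library and its own spread is unknown.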

Other observations

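Agreement between replicates at the 7 genes depended on which list was taken as the base. Of the forelimb replicate 1 regions, 61.3% were also in replicate 2, against 56.5% of all its regions and 46.8% in genes of 500 kb or more. In reverse it was 46.2%, against 57.7% and 42.9%. Of the hindlimb replicate 1 regions, 56.4% were in replicate 2, against 54.2% and 38.4%. In reverse it was 29.1%, against 35.02% and 24.2%. All 4 shares were above those of long genes, while 2 of the 4 were below those of all regions. Of the forebrain regions, 7.06% to 16.1% were in any 1 ectoderm library, against 18.6% to 30.02% over all forebrain regions and 7.20% to 14.6% in long genes.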
